A study of Mus musculus with 8 samples.

Results

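The mouse mitochondrial chromosome carries 37 annotated genes, which are 13 protein-coding genes (mRNAs), 2 ribosomal RNA genes (rRNAs), and 22 transfer RNA genes (tRNAs). They were taken as all rows on that chromosome, 37 of 54146 genes counted, whatever their level. Their transcripts were measured by bulk RNA-Seq in macrophages sorted from epididymal white adipose tissue (eWAT), the visceral fat pad of the male mouse. The 8 libraries are 1 of FCGR4+ and 1 of FCGR4- macrophages from each of 4 mice. FCGR4 is an activating Fcγ receptor that binds IgG. All mice were C57Bl6, ate a high fat diet without limit for 24 weeks, and then went through short-term caloric restriction (stCR), with the amount of food lowered by 30%, for 2 weeks. No unrestricted or lean mice are among these libraries, so both populations come from restricted animals. By the study's methods the animals were young adult males when experiments began, and the high fat diet used to induce obesity held added cholesterol. The sorted cells were CD45+CD11b+ and negative for CD3, B220, Ly6G, and SiglecF, and total RNA was extracted from them. Mice 1 and 2 carry the animal ID prefix S395, and mice 3 and 4 carry S491. What the prefix stands for is not given in the sources used here.

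Mitochondrial DNA is transcribed on both strands into long precursors. In most places a tRNA lies between the genes on either side, and cutting the tRNAs out frees the mRNAs and rRNAs. The heavy-strand transcript gives both rRNAs, most tRNAs, and every mRNA except mt-Nd6, which comes from the light strand with the remaining tRNAs. The mRNAs encode core subunits of respiratory chain complexes I, III, and IV and of ATP synthase (complex V), all of which also need subunits made from nuclear genes, while complex II is entirely nuclear encoded. The 2 rRNAs, mt-Rnr1 (12S) and mt-Rnr2 (16S), form the core of the mitochondrial ribosome. In macrophages, respiration is known to change with the state of activation and with the digestion of apoptotic cells.

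The genes are packed so tightly that some share bases, which matters here because a read pair that fell on 2 genes was left uncounted. The longest shared stretch joins mt-Atp8 and mt-Atp6, with 43 bases in common. The next 2 sequences are shown for that reason, 5′ to 3′ on the plus strand of mm10, at chrM:7907-7989 and chrM:10147-10193, with the bases that belong to both genes in capitals.
mt-Atp8 and mt-Atp6: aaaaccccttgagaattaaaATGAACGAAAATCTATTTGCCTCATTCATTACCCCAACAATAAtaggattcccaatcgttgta
mt-Nd4l and mt-Nd4: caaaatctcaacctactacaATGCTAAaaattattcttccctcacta

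The 7 bases shared by mt-Nd4l and mt-Nd4 hold the start codon of mt-Nd4. Another junction is shown because a tRNA there had far more counts than any other. The last 3 bases of mt-Co1, which are its stop codon, are also the first 3 of the interval of mt-Ts1, a serine tRNA encoded on the opposite strand. The stretch of the plus strand at chrM:6830-6938 is given with those 3 bases in capitals, followed by mt-Ts1 on its own strand (chrM:6870-6938).
mt-Co1 end and mt-Ts1, plus strand: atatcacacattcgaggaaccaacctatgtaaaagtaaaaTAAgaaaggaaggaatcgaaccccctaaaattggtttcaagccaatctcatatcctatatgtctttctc
mt-Ts1, own strand: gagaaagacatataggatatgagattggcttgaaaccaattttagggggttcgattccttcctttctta

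Strand was not used in counting, so transcripts that run past the end of mt-Co1 and transcripts of mt-Ts1 cannot be told apart at that row. The glutamine tRNA mt-Tq (chrM:3772-3842) and the glutamate tRNA mt-Te (chrM:14071-14139), both on the minus strand, are shown because they passed the threshold in the S491 mice.
mt-Tq: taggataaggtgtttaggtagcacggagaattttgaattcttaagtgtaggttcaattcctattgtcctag
mt-Te: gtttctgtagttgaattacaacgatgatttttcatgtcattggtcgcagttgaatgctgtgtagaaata

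The libraries held between 35992794 and 66856746 counts. FCGR4+ and FCGR4- libraries kept their labels by the sorted gene, as Fcgr4 lay between 139 and 236 normalized CPM (the count as a rate per library size, with library sizes adjusted by edgeR's TMM method) in FCGR4+ and between 48.5 and 82.9 in FCGR4- cells. Macrophage markers (8 of 8 measured) summed to between 21566 and 45852 normalized CPM in FCGR4+ and between 18529 and 43328 in FCGR4- libraries, and none was at 0. Markers of mast cells summed to between 194 and 2072 in FCGR4- libraries and to between 6.85 and 24.0 in FCGR4+ libraries, with 7 of 7 lower in FCGR4+, and markers of neutrophils, dendritic cells, T and NK cells, and B cells also had lower sums in FCGR4+ in 4 of 4 mice. By edgeR, which called 1.27% of all genes in this comparison, past the threshold of an adjusted P below 0.1 were 4 of 6 neutrophil, 3 of 6 dendritic cell, 5 of 6 T and NK cell, 2 of 5 B cell, 2 of 5 fibroblast, and 1 of 3 mesothelial markers, all lower in FCGR4+, and no macrophage, endothelial, or adipocyte marker. DESeq2, which called 5.99% of all genes, called 4 of the 8 macrophage markers (Mrc1, Mertk, Fcgr1, and Adgre1), all higher in FCGR4+. It called lower 7 of 7 mast cell, 5 of 6 neutrophil, 5 of 6 dendritic cell, 6 of 6 T and NK cell, 4 of 5 B cell, 5 of 5 fibroblast, and 1 of 3 mesothelial markers. The part of these other cells in the results below was not tested. In bulk samples, fewer cells of a type and less RNA per cell cannot be told apart.

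To learn how much of each library was mitochondrial, the counts on the 37 genes were divided by all counts. The FCGR4+ libraries of mice 1 to 4 gave shares of 8.31%, 4.35%, 7.87%, and 6.67%. Those of FCGR4- cells from the same mice gave 9.88%, 6.43%, 5.21%, and 4.13%. The groups overlapped, with 6.80% ± 1.77 (SD, n = 4) in FCGR4+ and 6.41% ± 2.49 in FCGR4- libraries. Within mice, however, the share was lower in FCGR4+ cells in both S395 mice and higher in both S491 mice. The log2 ratios of FCGR4+ to FCGR4- were -0.25 and -0.57 in the S395 mice and 0.60 and 0.69 in the S491 mice. Their mean was 0.12 ± 0.62 (SD, n = 4; exact 2-sided permutation of the signs, p = 0.75), and the smallest p that 4 mice allow is 0.125. Between the prefixes the means differed by 1.05, and the exact test of 2 against 2 mice gave p = 0.333, the smallest it can give.

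mRNAs made up most of this share, from 3.86% to 9.29% of a library, while rRNAs took from 0.250% to 0.731% and tRNAs from 0.0189% to 0.0701%. All 3 classes were lower in FCGR4+ cells in both S395 mice and higher in both S491 mice. The tRNA class is mostly the mt-Ts1 row, which took from 89.1% to 93.8% of its counts and may hold transcripts that run past mt-Co1. The mean log2 ratios of the mRNA share were -0.42 in S395 and 0.60 in S491 mice, those of the rRNA share -0.27 and 1.10, and those of the tRNA share -0.42 and 1.33. The total counts did not move in this way, as their FCGR4+ to FCGR4- log2 ratios were -0.06 and 0.49 in the S395 mice and 0.32 and -0.34 in the S491 mice.

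**Figure D1:**
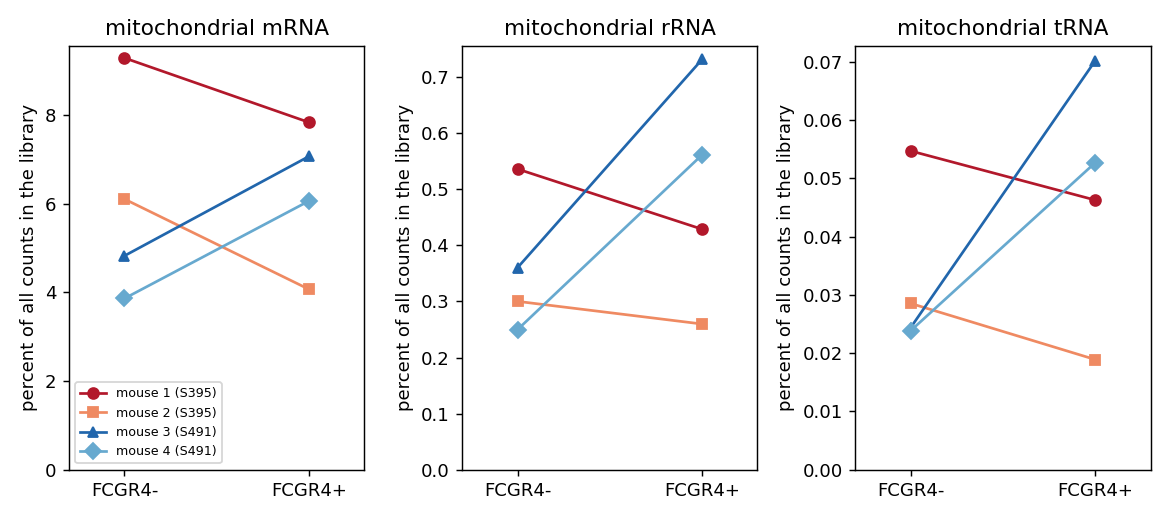
Percent of all counts in a library (y axis, from 0) that fell on mitochondrial mRNAs, rRNAs, and tRNAs in FCGR4- and FCGR4+ cells (x axis), with a line for each mouse. The lines of mice 1 and 2 (S395) fall and those of mice 3 and 4 (S491) climb in every panel, for example from 0.250% to 0.561% for rRNAs in mouse 4. Most counts of the tRNA panel are on mt-Ts1.

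Over all 4 mice, with mouse as a block, no mitochondrial gene passed this threshold. Of all 17095 genes tested, 1.27% did. The filter of at least 10 counts in at least 4 libraries was passed by 29 of 37 members, namely by 13 of 13 mRNAs, 2 of 2 rRNAs, and 14 of 22 tRNAs. The log2 fold changes (FCGR4+ over FCGR4-) had a median of 0.18 for the mRNAs, 0.58 for the rRNAs, and 0.18 for the tested tRNAs, beside -0.00254 for all genes. Of the mitochondrial genes, mt-Rnr1 alone had an unadjusted P below 0.05 (log2 fold change 0.68, SE 0.28, adjusted P = 0.488 by edgeR), as had 1671 of all genes. Its log2 fold change was 0.43 without mouse 4 and 0.96 without mouse 2. DESeq2, fitted with the same pairs, called no mitochondrial gene either, beside 5.99% of all genes, with mt-Rnr1 again the 1 gene at an unadjusted P below 0.05, and its lowest adjusted P was 0.148 for mt-Rnr1.

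mt-Rnr1 belongs to the small and mt-Rnr2 to the large subunit of the mitochondrial ribosome. mt-Rnr1 (chrM:70-1024) measured 513, 289, 914, and 549.6 normalized CPM in the FCGR4+ libraries of mice 1 to 4 and 426, 325, 393, and 209 in the FCGR4- libraries. mt-Rnr2 (chrM:1094-2675) measured 3791, 2432, 6896, and 5123 in FCGR4+ and 4708, 2854, 3099, and 2048 in FCGR4- libraries. The 2 highest values of both rRNAs within FCGR4+ cells belonged to mice 3 and 4, and the lowest FCGR4- value of both belonged to mouse 4. mt-Rnr1 is the only one of the 2 that was higher in FCGR4+ cells in mouse 1, with a log2 ratio of 0.27.

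Complex I (NADH dehydrogenase), through which electrons from NADH enter the chain, takes 7 subunits from mitochondrial genes. mt-Nd1 (chrM:2751-3707), which forms part of the quinone-binding region, measured 6851, 3852, 6505, and 5304 normalized CPM in FCGR4+ and 7296, 6110.0, 4254, and 2954 in FCGR4- libraries of mice 1 to 4. mt-Nd2 (chrM:3914-4951), a proton-pumping subunit, measured 2413, 1563, 2841, and 2307 in FCGR4+ and 2636, 2379.8, 1893, and 1076 in FCGR4- libraries. mt-Nd4 (chrM:10167-11544), another pumping subunit, measured 2800.1, 1512, 2366, and 1839.8 in FCGR4+ and 2794, 2198, 1688, and 1208 in FCGR4- libraries. Mouse 2 was the lowest FCGR4+ library for all 3 genes and mouse 4 the lowest FCGR4- library, and the 2 groups overlapped for each.

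mt-Nd5 (chrM:11742-13565), the pumping subunit with the longest coding sequence, measured 1378, 681, 954, and 894 normalized CPM in FCGR4+ and 1423, 946, 849, and 718 in FCGR4- libraries. mt-Nd3 (chrM:9459-9806) measured 192, 152, 302, and 263 in FCGR4+ and 287, 204, 161, and 98.7 in FCGR4- libraries, and its highest FCGR4- value, in mouse 1, lay between the FCGR4+ values of mice 3 and 4. mt-Nd4l (chrM:9877-10173) measured 138, 75.0, 101.04, and 84.9 in FCGR4+ and 151, 109.6, 96.7, and 80.9 in FCGR4- libraries. It had the smallest S491 ratios among the mRNAs, 0.06 and 0.07 on the log2 scale. mt-Nd6 (chrM:13552-14070, minus strand), the light-strand mRNA, measured 251, 171, 429.8, and 328 in FCGR4+ and 253, 231, 207, and 132 in FCGR4- libraries.

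Complex IV (cytochrome c oxidase), which hands electrons to oxygen, has its 3 catalytic-core subunits encoded here. mt-Co1 (chrM:5328-6872), which holds the site of oxygen reduction, measured 16148, 9013, 14008, and 12539.8 normalized CPM in FCGR4+ and 17485, 12506, 9582, and 8209.5 in FCGR4- libraries. mt-Co2 (chrM:7013-7696), which receives electrons from cytochrome c, measured 9266, 4923, 8955, and 6639.9 in FCGR4+ and 9623, 8044, 4957, and 3604 in FCGR4- libraries. mt-Co3 (chrM:8607-9390), the most counted member, measured 21641, 9833, 17953, and 15061 in FCGR4+ and 27457, 15679.7, 10713, and 8657 in FCGR4- libraries. The FCGR4- cells of mouse 1 held the highest value of all 3 genes and the FCGR4- cells of mouse 4 the lowest.

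mt-Cytb (chrM:14145-15288), the only mitochondrially encoded subunit of complex III, measured 5643, 2904, 4655, and 3848 normalized CPM in FCGR4+ and 6283, 4302, 3624, and 2816 in FCGR4- libraries. Complex V makes ATP from the proton gradient. Its subunit a, mt-Atp6 (chrM:7927-8607), which forms the proton channel, measured 10857, 7333, 14979, and 11232 in FCGR4+ and 12073, 11062, 8071, and 4945 in FCGR4- libraries. mt-Atp8 (chrM:7766-7969) measured 1032, 609, 1396, and 894 in FCGR4+ and 1152, 868, 657, and 388 in FCGR4- libraries. Within the S491 mice, both complex V mRNAs were over the matched FCGR4- value by log2 ratios between 0.89 and 1.20, and mt-Cytb by 0.36 and 0.45.

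Set beside each other by mouse, 12 of 13 mRNAs and 1 of 2 rRNAs were lower in FCGR4+ cells in both S395 mice and higher in both S491 mice. The exceptions were mt-Rnr1 and mt-Nd4, which in mouse 1 had log2 ratios of 0.27 and 0.0032. Of the 11 tRNAs with at least 10 counts in every library, 9 showed the same split. Among all 13923 genes with at least 10 counts in every library, 7.35% did.

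**Figure D2:**
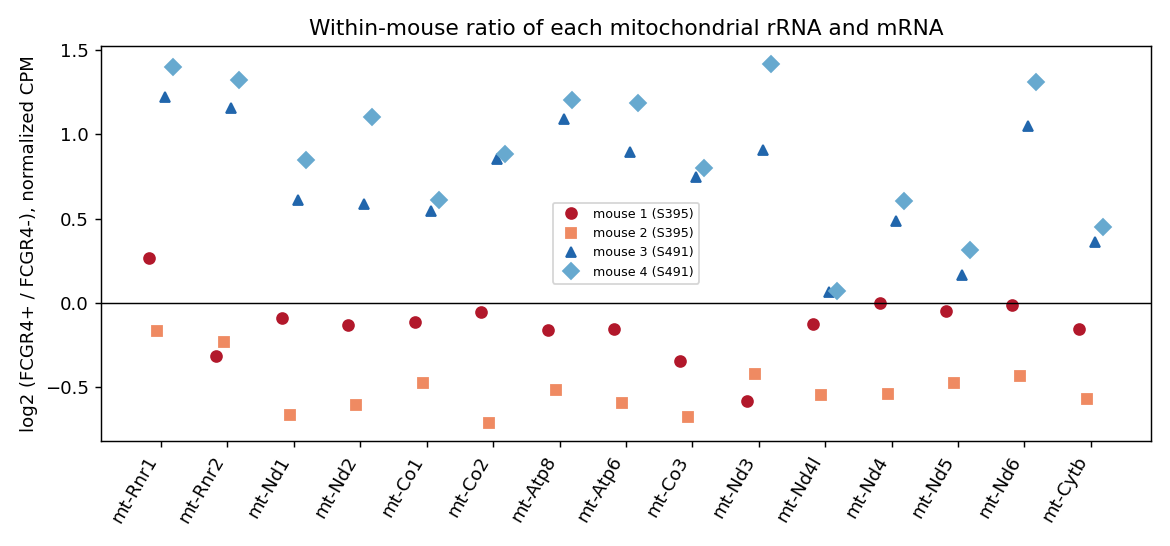
Log2 ratio of normalized CPM in FCGR4+ over FCGR4- cells (y axis, 0 means equal) for each rRNA and mRNA in genome order (x axis), with 1 point per mouse. Points of the S491 mice lie above 0 for all 15 genes, from 0.06 for mt-Nd4l to 1.42 for mt-Nd3, while those of the S395 mice lie below 0 apart from mt-Rnr1 (0.27) and mt-Nd4 (0.0032) in mouse 1.

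Fitted in the S491 mice alone, 14 mitochondrial genes were higher in FCGR4+ cells at an adjusted P below 0.1, beside 6.96% of all genes called higher in that fit. They were both rRNAs, 9 of 13 mRNAs, and 3 of the 12 tRNAs tested there (mt-Ts1, mt-Tq, and mt-Te). The log2 fold changes were 1.27 for mt-Rnr1 (adjusted P = 0.00431 by edgeR) and 1.20 for mt-Rnr2 (adjusted P = 0.00848). Among the mRNAs they ran from 0.51 for mt-Nd4 to 1.14 for mt-Nd6, with mt-Nd3 at 1.12 and mt-Atp8 at 1.11. The mRNAs that did not pass were mt-Co1 (0.54), mt-Cytb (0.37), mt-Nd5 (0.20), and mt-Nd4l (0.03). This fit rests on 2 mice and 1 residual degree of freedom, and edgeR draws each gene's spread toward a trend over all genes. Its adjusted P values therefore lean on the spread of other genes and do not measure how mice beyond these 2 would vary.

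In the S395 mice alone, no mitochondrial gene was called, beside 1.63% of all genes. By edgeR 1 of 13 mRNAs and 3 of 11 tRNAs tested there had an unadjusted P below 0.05, as had 1086 of all 14655 genes. The log2 fold changes of the 13 mRNAs were all negative, from -0.52 for mt-Co3 to -0.23 for mt-Nd6. mt-Rnr2 was at -0.28 and mt-Rnr1 at 0.04. The medians of all genes were 0.02 in this fit and -0.03 in that of the S491 mice.

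The difference between the prefixes in the FCGR4+ to FCGR4- ratio was then tested itself. It was positive, meaning a higher ratio in S491 mice, for 29 of 29 mitochondrial genes, with medians of 1.21 for the mRNAs, 1.38 for the rRNAs, and 1.48 for the tRNAs on the log2 scale, beside -0.06 for all genes. It was 1.51 for mt-Rnr2 (SE 0.18, unadjusted P = 0.000185), 1.88 for mt-Ts1, 1.66 for mt-Nd3, 1.48 for mt-Atp8, and 1.28 for mt-Co3, and it was lowest among the mRNAs for mt-Nd4l (0.40) and mt-Nd5 (0.50). None of these passed after adjustment over all genes, with adjusted P values from 0.303 upward by edgeR, and neither did any other gene (0% of 17095). At an unadjusted P below 0.05, 11 of 13 mRNAs, 2 of 2 rRNAs, and 7 of 14 tRNAs had a higher ratio in S491 mice, as did 6.14% of all genes. DESeq2 called 15 mitochondrial genes for this difference (11 mRNAs, both rRNAs, mt-Ts1, and mt-Tq), all with a higher ratio in S491 mice. Of the 8809 genes to which it gave an adjusted P, it called 5.66% in that direction, so the call depends on the tool.

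Levels summed over both populations of a mouse did not separate the prefixes. No mitochondrial gene was called between S491 and S395 mice, beside 0.0497% of all genes, and none had an unadjusted P below 0.05 (edgeR). The log2 differences of the mRNAs ran from -0.50 for mt-Co3 to 0.27 for mt-Nd6, those of mt-Rnr1 and mt-Rnr2 were 0.41 and 0.30, and their SEs lay between 0.25 and 0.38. DESeq2 called no mitochondrial gene for the level either, beside 13.1% of the 13480 genes to which it gave an adjusted P.

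The tRNA genes gave few counts. Without mt-Ts1 the other 21 had between 0 and 919 counts in a library, and the 8 untested ones (mt-Tf, mt-Tv, mt-Ti, mt-Td, mt-Tr, mt-Th, mt-Ts2, and mt-Tl2) at most 26. mt-Ts1 alone took from 89.1% to 93.8% of all tRNA counts. It measured 427, 181, 702, and 490.97 normalized CPM in the FCGR4+ libraries of mice 1 to 4 and 473, 269, 214, and 194 in the FCGR4- libraries. Its counts equalled between 2.01% and 5.01% of those of mt-Co1, whose end it adjoins. Of the tested tRNAs, mt-Te had the highest log2 fold change over 4 mice (0.70, SE 0.51) and mt-Tw, a tryptophan tRNA, the lowest (-0.30, SE 0.65), and neither passed the threshold. mt-Te measured 5.24, 1.10, 8.29, and 5.62 in FCGR4+ and 4.06, 2.41, 2.31, and 1.96 in FCGR4- libraries, and mt-Tq measured 7.92, 3.58, 11.7, and 12.8 in FCGR4+ and 14.1, 8.56, 4.32, and 5.28 in FCGR4- libraries. For mt-Tq the 2 populations changed places between the prefixes without overlap within a prefix.

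Levels were compared between genes per kb of annotated length. The order over all 8 libraries from 4 mice was mt-Co3 (mean 20248 ± 8176 normalized CPM per kb, SD, n = 8), mt-Atp6 (14785 ± 4604), mt-Co2 (10236 ± 3365), mt-Co1 (8049 ± 2181), mt-Nd1 (5633 ± 1635), mt-Atp8 (4287 ± 1582), mt-Cytb (3723 ± 1079), mt-Rnr2 (2446 ± 1026), mt-Nd2 (2060.4 ± 567), and mt-Nd4 (1488 ± 426). At the low end came mt-Nd3 (596 ± 205), mt-Nd5 (538 ± 152), mt-Nd6 (482 ± 179.5), mt-Rnr1 (474 ± 228), and mt-Nd4l (353 ± 92.0). In that order, mt-Co3 exceeded mt-Atp6, mt-Atp6 exceeded mt-Co2, mt-Co1 exceeded mt-Nd1, and mt-Nd2 exceeded mt-Nd4, which exceeded mt-Nd3, in 8 of 8 libraries. From mt-Nd3 down to mt-Nd4l, each gene exceeded the next in only 5 or 6 of 8 libraries, so neighbours among these 5 were not ordered beyond the spread. mt-Rnr2 lay below 7 of the 13 mRNAs on this scale, and it exceeded mt-Rnr1 by between 4.46 and 6.67 times. The order ranks counts, not measured transcript numbers. How library preparation and the pairs left uncounted where genes share bases changed it was not tested.

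**Figure D3:**
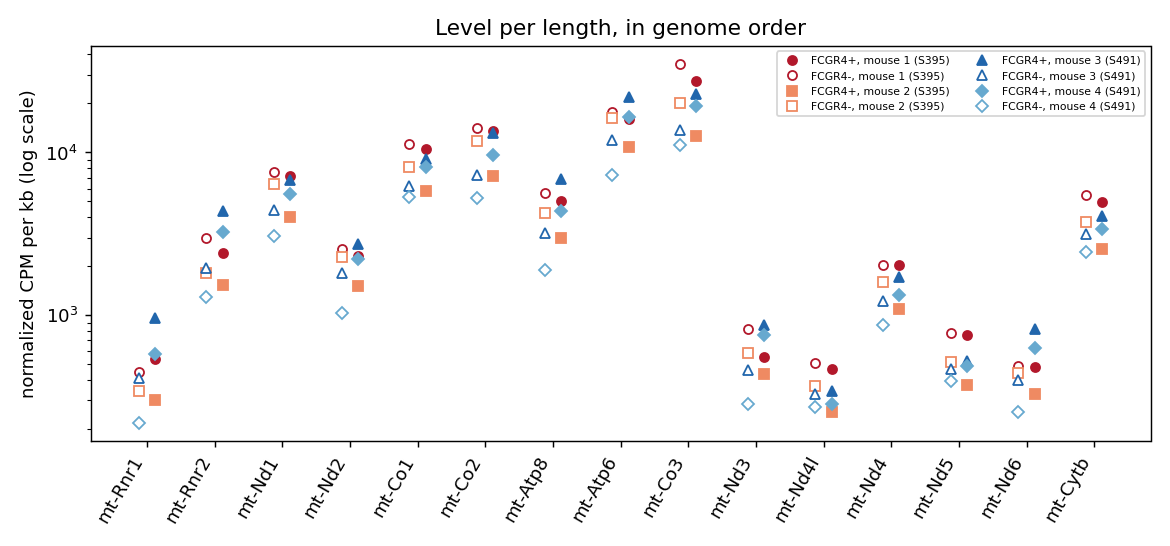
Normalized CPM per kb of annotated length (y axis, log scale) of the 2 rRNAs and 13 mRNAs in genome order (x axis), filled points for FCGR4+ and open points for FCGR4- libraries. mt-Co3 is at the top with values between 11042 and 35021, while mt-Nd4l, mt-Nd5, mt-Nd6, mt-Nd3, and mt-Rnr1 overlap at the bottom.

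Ratios inside the mitochondrial set do not depend on how libraries are scaled, so the composition of the set was compared next. mt-Nd6, the light-strand mRNA, was higher relative to the 12 heavy-strand mRNAs in FCGR4+ cells in 4 of 4 mice, with differences in log2 ratio of 0.17, 0.17, 0.36, and 0.50 in mice 1 to 4. The mean was 0.30 ± 0.16 (SD, n = 4; exact permutation p = 0.125, the smallest possible). mt-Nd6 ends on the opposite strand within the end of mt-Nd5, with 14 bases in common. Strand was not used in counting anywhere in the mt-Nd6 row. Heavy-strand RNA that runs opposite mt-Nd6 therefore cannot be told apart from its mRNA, and this ratio cannot be read as light-strand RNA alone. Of all mRNA counts, the 2 complex V mRNAs made up 15.1%, 18.6%, 21.7%, and 19.8% in FCGR4+ libraries of mice 1 to 4 and 14.9%, 18.5%, 18.7%, and 15.3% in FCGR4- libraries. All 4 mice had the larger share in the FCGR4+ library, by 1.99 ± 2.14 percentage points on average (exact permutation p = 0.125), with 0.25 and 0.18 points in the S395 mice and 3.04 and 4.51 in the S491 mice. Without mouse 4 the mean was 1.15 points, and with mt-Co3 left out of the mRNA counts the mean was 2.35 points, the exact permutation p was 0.5, and the mice no longer all had the same direction.

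The rRNAs were higher relative to the mRNAs in 3 of 4 mice, with differences in log2 ratio of -0.08, 0.38, 0.47, and 0.52 (mean 0.32 ± 0.27, exact permutation p = 0.25). mt-Rnr2 relative to mt-Rnr1 was lower in FCGR4+ cells in 4 of 4 mice, by 0.58 on the log2 scale in mouse 1 and between 0.06 and 0.07 in the others (mean -0.20 ± 0.26, exact permutation p = 0.125), and without mouse 1 the mean was -0.07. mt-Nd4l relative to mt-Nd4 was lower in 4 of 4 mice, with differences of -0.13, -0.01, -0.42, and -0.54 (exact permutation p = 0.125). mt-Atp8 relative to mt-Atp6 differed by between -0.01 and 0.20 (exact permutation p = 0.25). mt-Ts1 relative to mt-Co1 differed by -0.03 and -0.10 in the S395 mice and by 1.16 and 0.73 in the S491 mice (exact permutation p = 0.5). The share of complex I mRNAs was 18.1% ± 0.44 in FCGR4+ and 18.3% ± 1.24 in FCGR4- libraries, that of complex III 6.61% ± 0.47 and 7.39% ± 0.64, and that of complex IV 56.4% ± 2.40 and 57.5% ± 3.19, with exact permutation p of 0.75, 0.5, and 0.25. In all, 17 such ratios and shares were computed and none could pass 0.05 with 4 mice, so no p was adjusted.

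**Figure D4:**
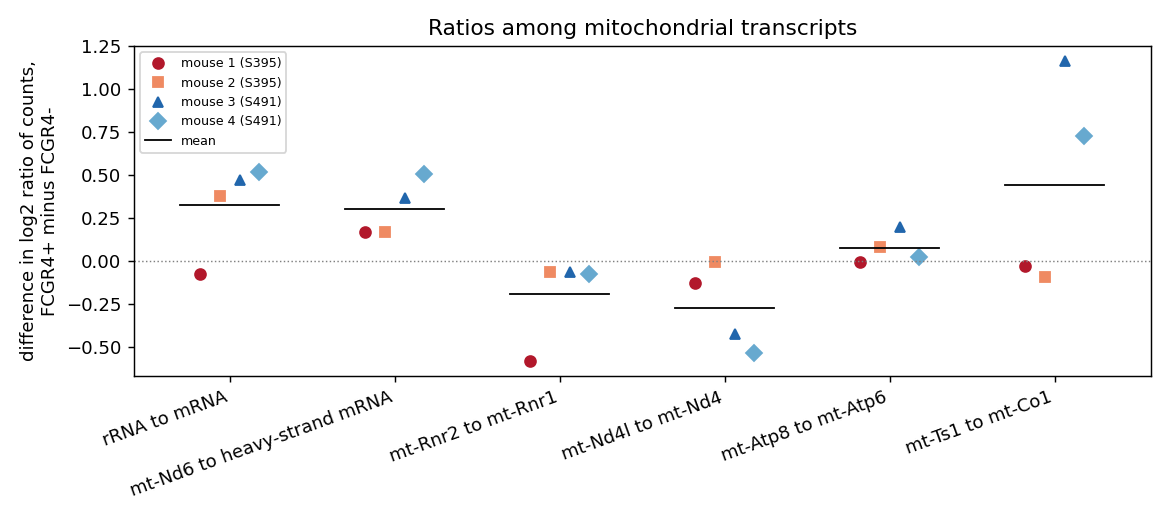
Difference between FCGR4+ and FCGR4- cells in the log2 ratio of counts (y axis) for 6 pairs of mitochondrial transcripts or classes (x axis), with a point per mouse and a bar at the mean of 4 mice. All points lie above 0 for mt-Nd6 relative to heavy-strand mRNAs and below 0 for mt-Rnr2 relative to mt-Rnr1 and for mt-Nd4l relative to mt-Nd4, and the points of the S491 mice stand apart for mt-Ts1 relative to mt-Co1.

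Fragments of mitochondrial DNA have been copied into nuclear chromosomes during evolution, and a read pair with more than 1 match added to the count of every matching place. Stretches of 50 bases identical to mitochondrial genes were found in 14 nuclear genes. On chromosome 1, 7 of them lie side by side, from Gm28439 (chr1:24611535-24612410) to Gm29216 (chr1:24615706-24616197). Of the sequence of mt-Co2, 100% of 50-base words recurred in nuclear genes, as did 99.9% of mt-Co3, 99.5% of mt-Atp6, 98.8% of mt-Nd4l, 98.0% of mt-Nd3, 62.2% of mt-Nd4, and 51.1% of mt-Co1. None of the words of mt-Rnr1, mt-Nd1, mt-Atp8, mt-Nd6, and mt-Cytb did. Gm28437 (chr1:24613189-24613971), the copy of mt-Co3, had 1284675 counts in FCGR4+ cells of mouse 1, and over all libraries its ratio to mt-Co3 was between 1.001 and 1.002. Gm28661, the copy of mt-Co2, was also within 1.002 times its gene, while Gm10925, the copy of mt-Atp6, carried between 1.20 and 1.26 times the counts of mt-Atp6.

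The 14 nuclear copies together took from 2.73% to 7.07% of a library, and their shares followed the mitochondrial ones, with log2 ratios of -0.28, -0.60, 0.70, and 0.77 in mice 1 to 4. A pair that matched both places was counted in both rows, so the shares of the copies are not independent of the mitochondrial ones. How many pairs did so is not in the counts, and which place a pair came from cannot be told apart. The copies are also part of all counts, by which the mitochondrial share was divided. With the copies left out there, the mean log2 ratio of the mitochondrial share was 0.12. The differences between prefixes of the genes that share no words with annotated nuclear genes were 1.48 for mt-Atp8, 1.404 for mt-Nd6, 1.26 for mt-Rnr1, 1.11 for mt-Nd1, and 0.77 for mt-Cytb on the log2 scale. Only annotated transcripts were searched. mt-Atp8 lies between mt-Co2 and mt-Atp6, and the sequence between their chromosome 1 copies (from 24614651 to 24614885) was not searched for a copy of it. Of the genes with nearly all words in nuclear genes, mt-Nd3 had 1.66, mt-Atp6 1.41, mt-Co3 1.28, mt-Co2 1.25, and mt-Nd4l 0.40.

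The nuclear genes of the same complexes were set beside the mitochondrial ones. None of 37 complex I, 9 complex III, 11 complex IV, and 15 complex V genes tested passed the threshold over 4 mice by edgeR or DESeq2, with median log2 fold changes of 0.22, 0.18, 0.25, and 0.22. Their summed levels split by prefix in a similar direction. For complex I the FCGR4+ to FCGR4- log2 ratios of the nuclear sum were -0.15, -0.06, 0.65, and 0.45 in mice 1 to 4, and those of the mitochondrial sum were -0.08, -0.61, 0.56, and 0.81. For complex V the nuclear sum gave -0.08, 0.01, 0.42, and 0.22 and the mitochondrial sum gave -0.15, -0.59, 0.91, and 1.19. The mitochondrial minus the nuclear log2 ratio averaged between -0.10 and 0.20 over the 4 complexes, with exact permutation p = 0.75 for each. In the S491 mice alone, 26 of 37 complex I, 5 of 9 complex III, 9 of 11 complex IV, and 8 of 15 complex V nuclear genes were called higher, while 0 of 4 complex II genes were, beside 6.96% of all genes. For the difference between prefixes, 26 of 37 nuclear complex I genes had an unadjusted P below 0.05 by edgeR, beside 13.8% of all genes, and none passed after adjustment. DESeq2 called 21 of 37 complex I, 5 of 9 complex III, 7 of 11 complex IV, and 8 of 15 complex V nuclear genes for this difference, all with a higher ratio in S491 mice. Of all genes given an adjusted P, it called 5.66% in that direction, so here too the call depends on the tool.

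**Figure D5:**
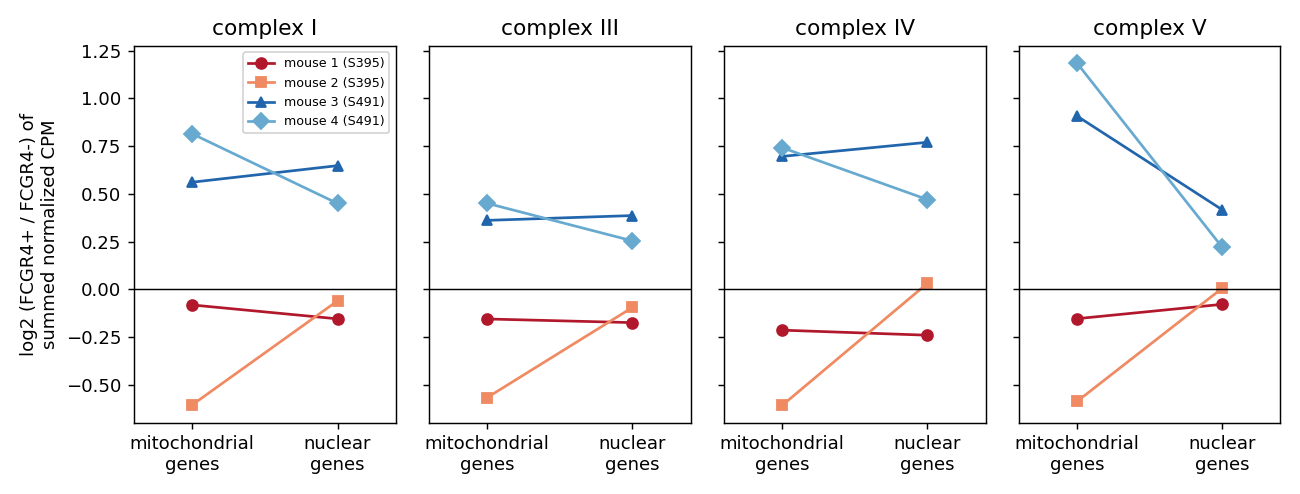
Log2 ratio of FCGR4+ over FCGR4- cells (y axis) of the summed normalized CPM of mitochondrial and of nuclear subunit genes (x axis) of complexes I, III, IV, and V, with a line for each mouse. Both S491 mice lie above 0 in every panel for both genomes, and in mouse 2 the mitochondrial sum, at about -0.6, lies below the nuclear sum.

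Genes that maintain and express the mitochondrial genome did not pass the threshold over 4 mice. Of 10 genes for transcription, 14 for replication and the nucleoid, 23 for RNA processing, stability, and decay, and 20 for rRNA and tRNA modification, none was called by edgeR, and the median log2 fold changes were 0.15, -0.03, 0.01, and 0.05. The mitochondrial RNA polymerase Polrmt had a log2 fold change of -0.35 (SE 0.26), Tfam, which packages mitochondrial DNA and starts its transcription, 0.06 (SE 0.19), the helicase Twnk -0.03 (SE 0.33), and the DNA polymerase Polg -0.51 (SE 0.20). Lrpprc and Slirp, which together stabilize mitochondrial mRNAs, were at -0.41 (SE 0.19) and 0.21 (SE 0.20). Trmt10c, part of the enzyme that cuts tRNAs at their 5′ end, was at -0.02 (SE 0.21), and Elac2, which cuts their 3′ end, at -0.13 (SE 0.16). The coactivators of mitochondrial biogenesis Ppargc1a and Ppargc1b were at 0.84 (SE 1.38) and -0.56 (SE 0.50), with mean levels below 2 normalized CPM. These 10 named genes had adjusted P values from 0.465 upward by edgeR. In the S491 mice alone, Polg (-0.87), the RNA-binding protein gene Fastk (-0.67), the rRNA methyltransferase gene Mrm3 (-1.70), and the transcription factor gene Nrf1 (-0.74) were called lower by edgeR, beside 9.5% of all genes. They come in that order from the lists for replication and the nucleoid, RNA processing, modification, and regulators of biogenesis, and no gene of the transcription list was called. For the difference between prefixes DESeq2 called 1 gene of these lists, Fastkd2, whose FCGR4+ to FCGR4- ratio was higher in S491 mice. Of the 8809 genes given an adjusted P, it called 499 higher and 478 lower.

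Proteins of the mitochondrial ribosome had medians of 0.21 (47 genes of the large subunit) and 0.25 (30 of the small subunit), and none was called. In the S491 mice alone, 7 of 47 genes of the large and 7 of 30 of the small subunit were called higher, beside 6.96% of all genes. Among 19 mitochondrial aminoacyl-tRNA synthetases none was called by edgeR over 4 mice, where the median log2 fold change was -0.02. DESeq2 called 1 (Lars2) higher, beside 192 of all 17095 genes. In the S491 mice alone edgeR called 2 (Pars2 and Lars2) higher, beside 6.96% of all genes. Lars2, the leucyl-tRNA synthetase, is named after its values were seen, since it made up from 82.6% to 97.6% of the list's summed level. It measured 1930, 1786, 10121.5, and 5878 normalized CPM in FCGR4+ libraries of mice 1 to 4 and 1928, 1337, 3450.2, and 2988 in FCGR4- libraries, with a log2 fold change of 0.74 (SE 0.25, adjusted P = 0.381 by edgeR).

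Some other measures also had higher or lower ratios in both S491 mice than in both S395 mice. Malat1, a long noncoding RNA kept in the nucleus, had FCGR4+ to FCGR4- log2 ratios of 0.10, -0.48, 1.24, and 1.34 in mice 1 to 4. Neat1, the other nuclear-retained RNA listed, did not show this, with 22.3, 16.8, 42.1, and 22.6 normalized CPM in FCGR4+ and 27.8, 21.0, 42.7, and 29.1 in FCGR4- libraries, lower in FCGR4+ in 4 of 4 mice. The summed level of 12 genes known to respond to tissue digestion and sorting had log2 ratios of 0.32, 0.13, -0.35, and -0.42, opposite in sign to the mitochondrial share in every mouse. The summed adipocyte markers had -0.22, 0.40, 1.51, and 0.92. Most of that sum was Fabp4, and only 2 of the 5 markers had a positive log2 fold change over 4 mice, with a median of -0.31. The summed mast cell and neutrophil markers were lower in FCGR4+ cells in all 4 mice, with log2 ratios from -6.43 to -1.15. The part of Malat1, of these lists, and of the ID prefix in the mitochondrial values was not tested, and whatever else differed between the animals of the 2 prefixes cannot be told apart from the prefix.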

How the data were processed

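The deposited values are counts of read pairs per gene, not normalized. The authors mapped reads to mm10 with STAR and counted them with featureCounts 1.6.3, whose recorded command counts read pairs, counts a pair that maps to several places at each of them, and uses no strand. Pairs on more than 1 gene were left out. All 8 count columns were mapped to population and mouse by their labels. The authors' annotated gene length was used for values per kb.

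A gene entered the fits if 4 or more of the 8 libraries had 10 or more counts (17095 of 54146). After TMM scaling, the quasi-likelihood F test of edgeR 4.0.16 in R 4.3.3 was run over all of these genes with each mouse as a block. P values were adjusted by the Benjamini-Hochberg method, and the threshold was 0.1. The difference between ID prefixes in the ratio was an interaction term. For the level by prefix, counts of both libraries of a mouse were summed, with 10 or more counts required in 2 or more mice (20107 genes). A standard error (SE) is the size of the log2 fold change over the root of F. Single values were compared by exact 2-sided permutation in Python 3.11.15. Per-mouse ratios are of normalized CPM without a pseudocount. The study used DESeq2 with mouse and population in the model, and DESeq2 1.42.0 was an alternative here, where an adjusted P it left out stayed left out.

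Total counts lay between 35992794 and 66856746 per library, at which 3 counts correspond to between 0.0440 and 0.0883 normalized CPM. No libraries were duplicates, as counts of every pair within a population differed by far more than sampling noise (chi-square per degree of freedom of at least 83.6). The mouse number pairs libraries of the same animal, and deviations of paired libraries correlated at between 0.29 and 0.43.

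The fits were tested on simulated counts with 200 genes changed. Of genes changed 4-fold, the paired fit recovered 89% (17095 genes), the interaction 60% (17095 genes), and the level fit 64% (20107 genes); of those changed 2-fold they recovered 51%, 12%, and 5%. Of the genes called in these simulations, 10 of 150, 13 of 85, and 13 of 82 had not been changed. 

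Sequences come from GENCODE transcripts on mm10, with 50-base words matched between mitochondrial and nuclear genes. The members are all genes on the mitochondrial chromosome, and in the text all 13 mRNAs and 2 rRNAs are named, tRNAs that passed the threshold or had the highest or lowest log2 fold change, and from the nuclear lists 10 examples. Fastk, Mrm3, Nrf1, Fastkd2, Pars2, Lars2, Malat1, Neat1, Mrc1, Mertk, Fcgr1, Adgre1, and Fabp4 were named after their values were seen, and other marker genes are given as counts. All 317 listed symbols were matched. The members and the lists were chosen with earlier results of these data known. Alternatives were other scalings, filters, thresholds, and denominators, DESeq2, no replicate block, each prefix alone, and leaving out each mouse. Scalings and denominators without the nuclear copies or the 10 most counted nuclear rows, the prefix comparisons without each mouse, and the composition without mt-Co3 were added after the data were seen.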

Additional observations from a re-analysis of the deposited data

Results flagged for a closer look

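Among the 15 mRNAs and rRNAs, 13 were lower in FCGR4+ cells in both S395 mice and higher in both S491 mice. Every mouse of one prefix moved against every mouse of the other for these genes. The difference was tested gene by gene, and none passed after adjustment by edgeR. The share of all counts on mitochondrial genes differed between the prefixes by 1.05 in its log2 ratio of FCGR4+ to FCGR4-, with opposite signs in the 2 pairs of mice, and the exact test of 2 against 2 mice cannot pass 0.05.

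In 74 groups of 4 values, a single value far from the other 3 was looked for by Dixon's ratio of the gap to the range, and 2 were found, where chance gives about 3.7. The tRNA share of the FCGR4- library of mouse 1 (0.0547%) stood above the other 3, which lay between 0.0238% and 0.0285%, with a ratio of 0.848. The difference between FCGR4+ and FCGR4- in mt-Rnr2 relative to mt-Rnr1 was -0.58 in mouse 1 against -0.06 to -0.07 in the other 3 mice, with a ratio of 0.979.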

How the results depend on the processing

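No mitochondrial gene was called over 4 mice under any alternative but 1, since without the filter on low counts mt-Rnr1 passed (log2 fold change 0.70, adjusted P = 0.0411 by edgeR). Fitted in S491 mice alone, 14 were called. For the difference between prefixes, 0 were called by edgeR and 15 by DESeq2. Without the replicate block, 0 were called, the log2 fold changes of the mRNAs and rRNAs ran from -0.13 to 0.74, and the exact permutation p of the mitochondrial share was 0.686, while its mean log2 ratio of 0.12 is the same by construction. Of all genes, 14 were called higher and 203 lower, against 1 and 47 without the block, 192 and 832 with DESeq2, 159 and 895 without the filter, 57 and 572 with the newer quasi-likelihood method, and from 2 to 7 and from 78 to 133 without 1 mouse. DESeq2 called 499 genes higher and 478 lower for the difference between prefixes, where edgeR called 0, and 998 and 773 for the level, where edgeR called 10 and 0.

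Most log2 fold changes turned negative in the S395 mice alone, at -0.28 for mt-Rnr2, -0.39 for mt-Nd1, -0.38 for mt-Nd2, -0.31 for mt-Co1, -0.39 for mt-Co2, -0.35 for mt-Atp8, -0.38 for mt-Atp6, -0.52 for mt-Co3, -0.51 for mt-Nd3, -0.28 for mt-Nd4, -0.23 for mt-Nd6, and -0.37 for mt-Cytb. In the S491 mice alone mt-Nd4l was at 0.029 and mt-Nd5 at 0.20. mt-Nd5 was at 0.011 without the filter, and mt-Cytb at -0.065 with library size as the only scaling.

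Leaving out 1 mouse at a time gave log2 fold changes from -0.054 to 0.45 for mt-Nd1, -0.056 to 0.51 for mt-Nd2, -0.019 to 0.34 for mt-Co1, -0.10 to 0.40 for mt-Co3, -0.044 to 0.64 for mt-Nd3, -0.021 to 0.36 for mt-Nd4, -0.12 to 0.14 for mt-Nd5, and -0.13 to 0.21 for mt-Cytb, and from 0.43 to 0.96 for mt-Rnr1. The lowest value of each of these 9 genes came without mouse 4. The share's mean log2 ratio ran from -0.073 without mouse 4 to 0.35 without mouse 2, and the complex I share of mRNA counts differed by -0.57 to 0.38 percentage points. The cause of these changes was not tested. With 4 mice no exact test paired within mouse or between the prefixes could pass 0.05. Of the 22 tRNAs, 8 had too few counts to be tested.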
